A study of Mus musculus with 12 samples.

Results

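The genes described are 10 that act at the surface or in the assembly of cytosolic lipid droplets: the perilipins Plin2, Plin3, Plin4 and Plin5, the CIDE proteins Cidea, Cideb and Cidec, the fat storage-inducing proteins Fitm1 and Fitm2, and G0s2. They were chosen by name, out of 18193 genes with a probe set of their own on the array, and all 11 probe sets that carry 1 of these symbols were used. Liver RNA had been hybridised to Affymetrix arrays, 1 per mouse, in 4 groups of 3 male mice aged 6 to 12 weeks and killed at ZT14, 14 h after lights on. The groups were untreated wild-type mice and, kept for 5 days on a diet holding 0.5% bezafibrate by weight, wild-type mice, PPARα-null mice and Clk/Clk mutant mice. Wild-type and Clk/Clk mice had the Jcl:ICR background, whereas the PPARα-null mice came from a cross of 129S4SvJae-PPARalphatm1Gonz/J with Jcl:ICR, so strain and genotype cannot be told apart there. Neither mutant was measured without the drug, so a mutant's baseline and its drug response cannot be told apart either. Both are whole-animal mutations and no cell type was isolated; in whole liver, fewer cells of a type and less RNA per cell cannot be told apart.

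A lipid droplet is a core of triglyceride and sterol ester under a phospholipid monolayer, and hepatocytes enlarge and consume droplets as fatty acids arrive and leave. Perilipins coat the monolayer and control the access of lipases, FIT proteins of the endoplasmic reticulum pass triglyceride into budding droplets, CIDE proteins join droplets or load lipid onto lipoproteins, and G0s2 binds and inhibits the triglyceride lipase Pnpla2. PPARα is a fatty acid-activated nuclear receptor that bezafibrate, a fibrate drug, stimulates. CLOCK is a transcription factor of the circadian clock.

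Values are log2 expression, so a difference of 1 is a doubling, and no probe set's level is set against another's. A gene was called when its difference reached 1.5-fold with an adjusted p under 0.05 over all 13598 genes tested (limma, Benjamini-Hochberg). The arrays were even, with medians between 5.45 and 5.50. All 9 hepatocyte markers that could be read passed the filter on dim probe sets, a level of 4.87 to 4.92, and albumin (Alb) lay between 14.81 and 14.87 in every mouse. That is near the top of the arrays, whose highest values were 14.86 to 15.003, so albumin had little room to vary. Of the 9 markers, 4 were called lower with the drug in wild type. The brightest Ppara probe set read 9.73 to 10.04 in PPARα-null mice and 10.53 to 10.996 in treated wild type, and Clock read 9.07 to 9.37 in Clk/Clk mice and 7.99 to 8.49 in treated wild type. The positions of these probe sets relative to the mutations were not known, so they check neither genotype.

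Bezafibrate raised 8 of the 10 droplet genes in wild-type liver and lowered none past the threshold. Over all genes tested, 20.6% were called in this comparison and 12.8% were called higher and 7.77% lower. Without Cidea and Cidec, which were below the filter level in all untreated mice and could be tested only through treated ones, 6 of 8 rose. The median difference of the 10 genes was 1.05, against 0.0065 for all genes. In PPARα-null mice on the drug 7 of the 10 were lower than in wild type on the drug and none was higher, where 13.4% of all genes were called and 8.09% were lower and 5.35% higher. Without Cidea and Cidec, 5 of 8 were lower. The medians were -1.39 for the 10 genes and 0.010 for all genes. In Clk/Clk mice on the drug 2 of the 10 were higher and none was lower, where 9.13% of all genes were called and 2.64% were higher and 6.49% lower, and the medians were -0.088 and 0.020. These 3 comparisons share the treated wild-type arrays and are not independent of each other.

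**Figure D1:**
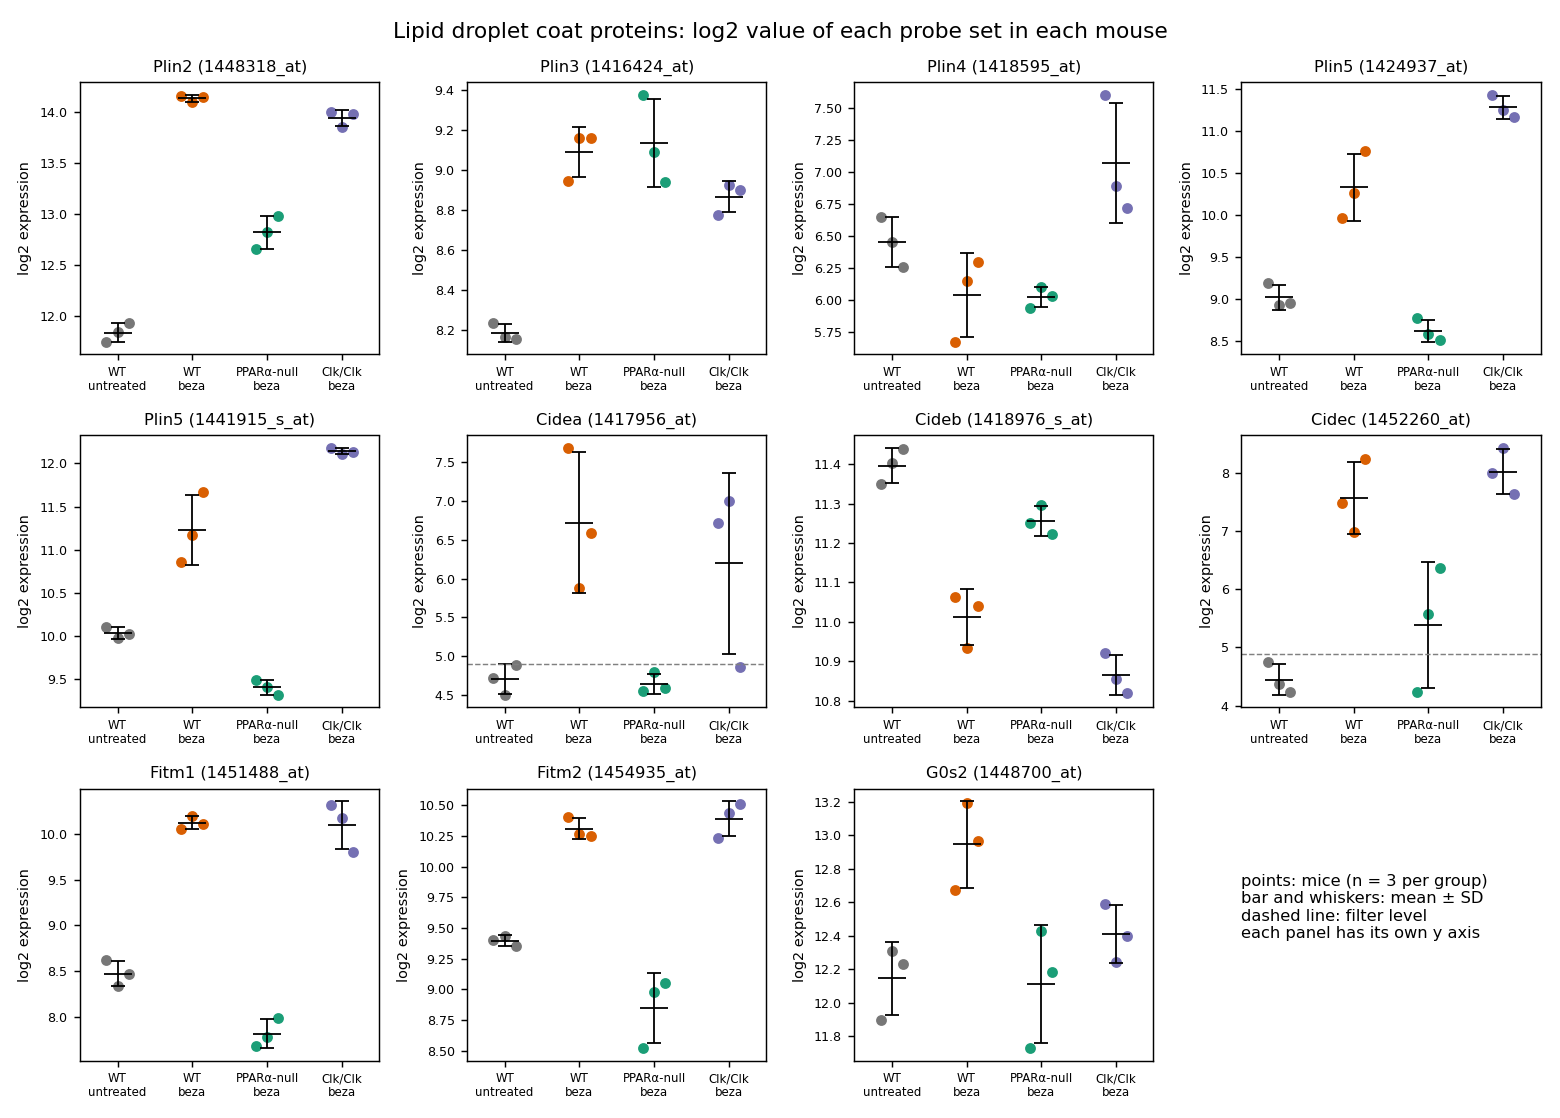
Log2 expression (y axis, its own range in each panel) of the 11 probe sets in each of the 12 mice, by group (x axis); points are mice, bars and whiskers mean ± SD, and the dashed line in the Cidea and Cidec panels is the filter level. Plin5 is highest in all 3 Clk/Clk mice on both of its probe sets, and the Cidea panel has 1 Clk/Clk mouse at 4.86 among 2 above 6.7.

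Plin2, the coat protein found on droplets of nearly all cells and the main one of hepatocytes, read 11.75, 11.84 and 11.93 in the 3 untreated wild-type mice, 14.16, 14.10 and 14.15 in treated wild type, 12.66, 12.82 and 12.98 in PPARα-null mice, and 13.997, 13.85 and 13.98 in Clk/Clk mice. All treated mice lay above all untreated ones, with the null mice between the untreated and the other treated mice and overlapping neither. The rise in wild type was 2.29 (SE 0.088, 4.90-fold, adjusted p = 1.41e-08). The null mice were below treated wild type (-1.31, 2.49-fold, SE 0.088, adjusted p = 1.06e-06) and still 0.98 above untreated wild type (SE 0.088, 1.97-fold, adjusted p = 4.15e-05). Clk/Clk mice differed from treated wild type by -0.19 (95% interval -0.39 to -0.0022, adjusted p = 0.129), which did not pass. The treated wild-type values lay near the top of the arrays' range, whose highest value was 15.003.

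Plin3, a cytosolic perilipin that moves onto young droplets, read 8.23, 8.17 and 8.15 in untreated wild type, 8.95, 9.16 and 9.16 in treated wild type, 9.38, 9.09 and 8.94 in PPARα-null mice, and 8.78, 8.92 and 8.90 in Clk/Clk mice. The 9 treated mice of the 3 genotypes were all above the untreated ones. Treated wild type was 0.90 higher than untreated (SE 0.11, 1.87-fold, adjusted p = 3.42e-05) and the treated null mice were 0.95 higher than untreated wild type (SE 0.11, 1.93-fold, adjusted p = 1.73e-04). Between null and wild type on the drug the difference was 0.046 (95% interval -0.19 to 0.28, adjusted p = 0.771). Among the 8 genes that rose with the drug, Plin3 was the only one not called lower in null mice.

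Plin5, the perilipin of oxidative tissues that sits between droplets and mitochondria and binds Pnpla2 and its activator Abhd5, has 2 probe sets. On the brighter it read 10.11, 9.98 and 10.03 in untreated wild type, 10.86, 11.17 and 11.66 in treated wild type, 9.49, 9.42 and 9.32 in PPARα-null mice, and 12.18, 12.11 and 12.13 in Clk/Clk mice. None of the 4 groups overlapped another, and the order from low to high was null, untreated wild type, treated wild type, Clk/Clk. The rise in wild type was 1.19 (SE 0.15, 2.28-fold, adjusted p = 7.13e-05), and null mice were below treated wild type (-1.82, SE 0.15, 3.53-fold, adjusted p = 5.76e-06). Clk/Clk mice were 0.91 above treated wild type (SE 0.15, 1.88-fold, adjusted p = 0.00177) and 2.73 above null mice (SE 0.15, 6.64-fold, adjusted p = 2.23e-07). The treated wild-type mice spread more (SD 0.406) than the Clk/Clk mice (SD 0.035), and the lowest Clk/Clk mouse was 0.45 above the highest treated wild-type mouse. The dimmer probe set gave 1.31 for the drug in wild type, -1.70 for null mice and 0.95 for Clk/Clk mice, all called in the fit over every probe set, in which 19.3%, 12.4% and 8.6% of probe sets were called. The null mice were also lower than untreated wild type on the brighter probe set (-0.63, SE 0.15, adjusted p = 0.0142). Leaving out PPARα-null mouse 3 ended that call (-0.58, adjusted p = 0.0540), and the dimmer probe set gave -0.40 (adjusted p = 0.122), where 6.69% of probe sets were called.

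Plin4, a perilipin of adipocytes and muscle that coats nascent droplets, was called neither with the drug in wild type nor between null and wild-type mice. It read 6.64, 6.46 and 6.26 in untreated wild type, 5.67, 6.15 and 6.30 in treated wild type, 5.94, 6.10 and 6.03 in PPARα-null mice, and 7.60, 6.89 and 6.71 in Clk/Clk mice. The Clk/Clk mice were above every other mouse, and treated and untreated wild type overlapped. Clk/Clk mice were 1.03 above treated wild type (SE 0.21, 2.04-fold, adjusted p = 0.00572) and 1.04 above null mice (SE 0.21, adjusted p = 0.00265). The drug difference in wild type was -0.41 (95% interval -0.88 to 0.058, adjusted p = 0.134), and null mice differed from treated wild type by -0.016 (95% interval -0.49 to 0.46, adjusted p = 0.965). Against untreated wild type the Clk/Clk difference was 0.61 (SE 0.21, adjusted p = 0.0359), and it missed the threshold without Clk/Clk mouse 1 (0.35, adjusted p = 0.134), without untreated mouse 2 (0.62, adjusted p = 0.0759) or 3 (0.52, adjusted p = 0.118), with the replicate block (0.61, adjusted p = 0.0554) and when only these 2 groups were fitted (0.61, adjusted p = 0.0561).

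Plin4 and Plin5 are next to each other on chromosome 17 in the reference gene table, between Hdgfl2 and Lrg1. Lrg1, a secreted acute phase glycoprotein, read 12.55, 11.13 and 11.69 in untreated wild type, 10.48, 10.88 and 11.04 in treated wild type, 10.95, 10.17 and 10.57 in PPARα-null mice, and 12.35, 11.65 and 11.54 in Clk/Clk mice. Its Clk/Clk mice lay above treated wild type by 1.05 (SE 0.34, adjusted p = 0.0417), but this call was lost in 8 of the 12 fits that left out 1 array, where the difference ran from 0.80 to 1.20. Those 8 left out any Clk/Clk mouse, any treated wild-type mouse, null mouse 3 or untreated mouse 3, and the call was also lost with robust and trended variances (adjusted p = 0.0654). Hdgfl2 differed by -0.046 (SE 0.075, adjusted p = 0.691) between the same groups. Of the 4 consecutive genes, Plin4, Plin5 and, in the main fit, Lrg1 were higher in Clk/Clk than in wild-type mice on the drug. Against untreated wild type, Clk/Clk mice differed by 2.10 in Plin5, 0.61 in Plin4 and 0.055 in Lrg1 (adjusted p = 0.914 for Lrg1). With the drug in wild type Plin5 rose, Lrg1 was lower (-0.99, SE 0.34, adjusted p = 0.0293) and the other pair did not pass. This Lrg1 call ended when mouse 1 (-0.83) or 2 (-1.03) of the treated wild type, or mouse 1 (-0.61) or 3 (-1.04) of the untreated, was left out, and when only these 2 groups were fitted (-0.99, adjusted p = 0.0526).

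**Figure D2:**
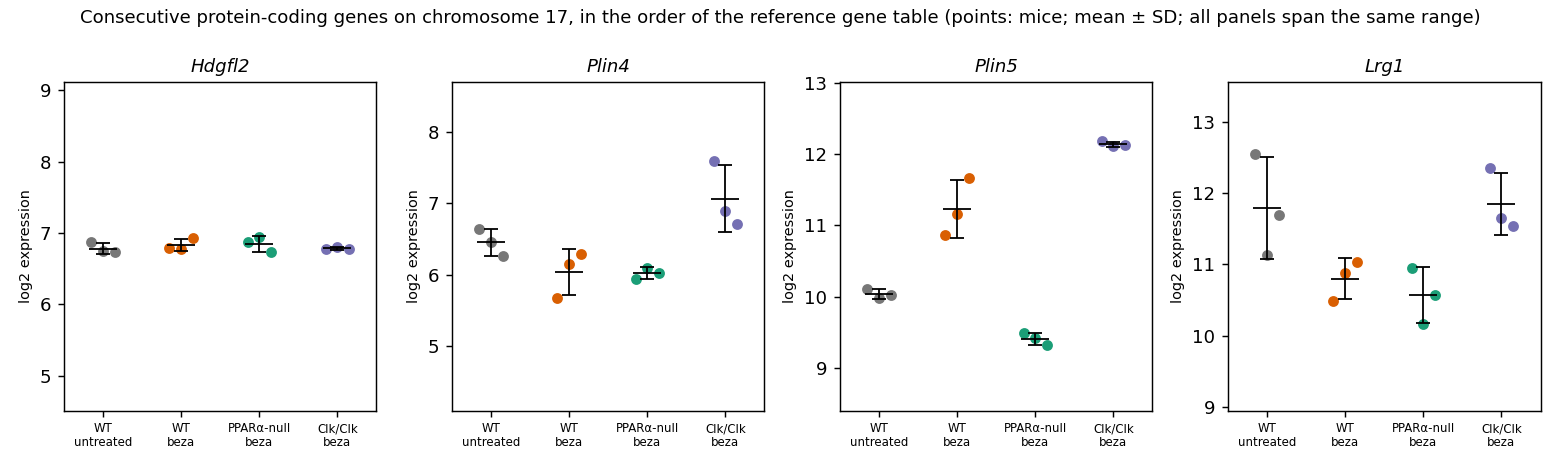
Log2 expression (y axis, the same span in every panel) of Hdgfl2, Plin4, Plin5 and Lrg1, consecutive protein-coding genes on chromosome 17, in each of the 12 mice by group (x axis), with mean ± SD. Hdgfl2 stays between 6.73 and 6.95 in all mice, whereas the 3 Clk/Clk mice are above the 3 treated wild-type mice for each of the other genes.

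Fitm1 and Fitm2, which bind triglyceride in the endoplasmic reticulum membrane and pass it to droplets, changed in the same direction as Plin5 with the drug and in null mice. Fitm1, known mainly from skeletal muscle, read 8.61, 8.33 and 8.47 in untreated wild type, 10.06, 10.20 and 10.11 in treated wild type, 7.68, 7.77 and 7.98 in PPARα-null mice, and 10.32, 10.17 and 9.80 in Clk/Clk mice. Fitm2, the widely expressed member, read 9.40, 9.44 and 9.35 in untreated wild type, 10.41, 10.27 and 10.25 in treated wild type, 8.52, 8.98 and 9.05 in PPARα-null mice, and 10.23, 10.43 and 10.51 in Clk/Clk mice. For both genes the null mice were below the untreated mice, which were below the treated wild-type and Clk/Clk mice, and these last groups overlapped.

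The drug raised Fitm1 by 1.65 (SE 0.13, 3.15-fold, adjusted p = 1.64e-06) and Fitm2 by 0.91 (SE 0.13, 1.88-fold, adjusted p = 1.17e-04) in wild type. Null mice were lower than treated wild type in Fitm1 (-2.31, SE 0.13, 4.97-fold, adjusted p = 3.24e-07) and in Fitm2 (-1.46, SE 0.13, 2.75-fold, adjusted p = 6.79e-06). Against untreated wild type, null mice were lower in Fitm1 (-0.66, SE 0.13, adjusted p = 0.00473). Fitm2 was at -0.55 (SE 0.13, 1.46-fold, adjusted p = 0.0103) in that comparison, under the fold threshold, and was called without PPARα-null mouse 2 (-0.61) or 3 (-0.65). Clk/Clk mice differed from treated wild type by -0.028 (95% interval -0.31 to 0.26) in Fitm1 and 0.083 (95% interval -0.19 to 0.36) in Fitm2, neither called. Over the 12 mice, Pearson's r was 0.96 between Fitm1 and Fitm2, 0.93 between Plin5 and Fitm1 and 0.92 between Plin5 and Fitm2. These correlations are descriptions over mice that share the treatment and the genotypes.

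Plin2, Plin5 and Fitm1 were called higher with bezafibrate in wild type and lower in treated PPARα-null mice. Plin4, the neighbour of Plin5, was called in neither comparison. For this reason the sequences before the transcription starts of these 4 genes are shown. Each is the 250 bases before a RefSeq start (build GRCm38.p6), written 5′ to 3′ on the gene's strand, and capitals mark the hexamer AGGNCA on either strand, the repeat unit of the element that PPARα binds with RXR. The windows are chr4:86670060-86670309 (minus strand) for Plin2, chr17:56117549-56117798 (minus strand) for Plin5, chr14:55575424-55575673 (plus strand) for Fitm1 and chr17:56109783-56110032 (minus strand) for Plin4.
Plin2: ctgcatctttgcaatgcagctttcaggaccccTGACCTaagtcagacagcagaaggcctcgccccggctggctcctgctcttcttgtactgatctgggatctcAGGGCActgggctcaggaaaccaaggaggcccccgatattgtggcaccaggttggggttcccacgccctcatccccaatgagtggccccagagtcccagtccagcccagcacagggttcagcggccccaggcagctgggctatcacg
Plin5: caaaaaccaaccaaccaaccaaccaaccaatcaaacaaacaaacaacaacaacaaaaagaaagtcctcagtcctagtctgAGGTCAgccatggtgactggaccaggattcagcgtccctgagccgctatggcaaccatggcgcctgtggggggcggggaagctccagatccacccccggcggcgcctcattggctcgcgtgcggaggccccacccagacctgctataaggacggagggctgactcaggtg
Fitm1: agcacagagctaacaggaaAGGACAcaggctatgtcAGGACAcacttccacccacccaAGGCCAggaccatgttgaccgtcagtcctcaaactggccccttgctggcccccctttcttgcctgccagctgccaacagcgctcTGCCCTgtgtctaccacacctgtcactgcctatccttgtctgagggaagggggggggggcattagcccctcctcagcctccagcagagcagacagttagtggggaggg
Plin4: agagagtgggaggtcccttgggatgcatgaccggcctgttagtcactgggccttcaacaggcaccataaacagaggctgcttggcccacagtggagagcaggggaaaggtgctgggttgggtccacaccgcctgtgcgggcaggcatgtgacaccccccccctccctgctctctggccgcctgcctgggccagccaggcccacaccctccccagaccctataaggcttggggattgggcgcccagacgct

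The Plin2 window holds 2 such hexamers, the Plin5 window 1, the Fitm1 window 4 and the Plin4 window 0. Over all droplet genes it was in 7 of 11 windows and 6 of 9 genes, Plin3, which was not called lower in null mice, among them. G0s2, which was called higher with the drug and lower in null mice, was not among them. The hexamer AGGNCA, on either strand, lies in 51.3% of the 32851 promoter windows of this length in the table, so its presence is common. The stricter AGGTCA lies in 14% of all windows and in 2 of the 11 windows of the droplet genes, those of Plin2 and Plin5. The full direct repeat, AGGNCA followed by any 1 base and AGGNCA again, lies in 0.338% of all windows and in 0 of these 11. The E-boxes CACGTG (6.02% of all windows) and CACGTT (3.85%), the letters that CLOCK with BMAL1 binds, are also in 0 of the 11. These counts cover 9 of the 10 genes, all but Cidea, and these windows only, and say nothing about sites elsewhere.

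Cidec and Cidea, which join droplets into larger ones and are best known from white and brown fat, rose from signals below the filter level. Cidec read 4.74, 4.37 and 4.23 in untreated wild type, 7.48, 6.99 and 8.23 in treated wild type, 4.23, 5.58 and 6.37 in PPARα-null mice, and 7.99, 8.42 and 7.64 in Clk/Clk mice. Treated wild-type and Clk/Clk mice overlapped each other and lay above all other mice, while the null mice ranged from the untreated level to 6.37. Since all untreated mice were below the filter level, the rise in wild type is a bound on the means. It was at least 6.30-fold with that level in their place (measured means 7.56 and 4.45, adjusted p = 1.93e-04). The measured log2 difference had a 95% interval of 2.11 to 4.13. Null mice were lower than treated wild type (-2.17, SE 0.46, 4.51-fold, adjusted p = 0.00378). Null and untreated mice differed by 0.94 (95% interval -0.066 to 1.95, adjusted p = 0.171), and this difference was called without PPARα-null mouse 1 (1.52, adjusted p = 0.0156). Clk/Clk mice differed from treated wild type by 0.45 (95% interval -0.56 to 1.46, adjusted p = 0.505).

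Cidea read 4.72, 4.49 and 4.89 in untreated wild type, 7.69, 5.88 and 6.59 in treated wild type, 4.54, 4.79 and 4.58 in PPARα-null mice, and 6.72, 7.01 and 4.86 in Clk/Clk mice. It was above the filter level in all 3 treated wild-type mice and in 2 of the 3 Clk/Clk mice, and below it in the other 7 mice. With untreated and null mice all below that level, the mean of treated wild type was at least 3.51-fold above untreated (measured means 6.72 and 4.70, adjusted p = 0.00701). It was at least 3.52-fold above null mice (measured means 6.72 and 4.64, adjusted p = 0.00921). These bounds compare means and leave out the spread between mice. The measured log2 differences had 95% intervals of 0.89 to 3.15 with the drug and -3.21 to -0.95 in null mice. Clk/Clk mice differed from treated wild type by -0.53 (95% interval -1.66 to 0.61, adjusted p = 0.489). Against untreated wild type their mean was at least 2.44-fold higher (measured difference 1.496, 95% interval 0.36 to 2.63, adjusted p = 0.0338). This call was lost with robust and trended variances (adjusted p = 0.0571). It was also lost in 5 of the 12 fits without 1 array, where the difference ran from 1.09 to 2.16. These fits left out Clk/Clk mouse 1 or 2 or any of the 3 untreated mice. Since Cidea and Cidec passed the filter only through treated mice, they could be tested only because they were high there.

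Cideb, the hepatocyte member that helps load triglyceride onto very low density lipoproteins, moved the other way by small amounts. It read 11.35, 11.40 and 11.44 in untreated wild type, 11.06, 10.93 and 11.04 in treated wild type, 11.25, 11.30 and 11.22 in PPARα-null mice, and 10.92, 10.86 and 10.82 in Clk/Clk mice. The groups did not overlap, and the order from high to low was untreated, null, treated wild type, Clk/Clk. The drug difference in wild type was -0.38 (SE 0.063, 1.31-fold, adjusted p = 4.05e-04) and the null difference 0.24 (SE 0.063, 1.18-fold, adjusted p = 0.0115), both past the p threshold but under the fold threshold. Against untreated wild type, Clk/Clk mice were at -0.53 (SE 0.063, 1.45-fold, adjusted p = 3.75e-05), also under the fold threshold. Its r over the 12 mice was -0.91 with Plin2 and -0.90 with Cidec. The only probe set of Cideb is a suffix set, which can match several transcripts, so Cideb was not tested with suffix sets left out.

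G0s2, the inhibitor of Pnpla2, read 11.90, 12.31 and 12.23 in untreated wild type, 12.67, 13.19 and 12.97 in treated wild type, 11.73, 12.43 and 12.18 in PPARα-null mice, and 12.59, 12.24 and 12.40 in Clk/Clk mice. Treated wild-type mice were above all others, and the other 3 groups overlapped one another. The rise in wild type was 0.80 (SE 0.19, 1.74-fold, adjusted p = 0.00400), and null mice were lower (-0.83, SE 0.19, 1.78-fold, adjusted p = 0.00507). Null mice differed from untreated wild type by -0.034 (95% interval -0.44 to 0.37, adjusted p = 0.921). Clk/Clk mice were at -0.53 from treated wild type (95% interval -0.94 to -0.13, adjusted p = 0.0556), which did not pass, and were called lower without treated wild-type mouse 1 (-0.67, adjusted p = 0.0359). G0s2 was the only drug-raised gene of the set whose Clk/Clk mice were not called above untreated wild type (0.26, 95% interval -0.14 to 0.67, adjusted p = 0.275).

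**Figure D3:**
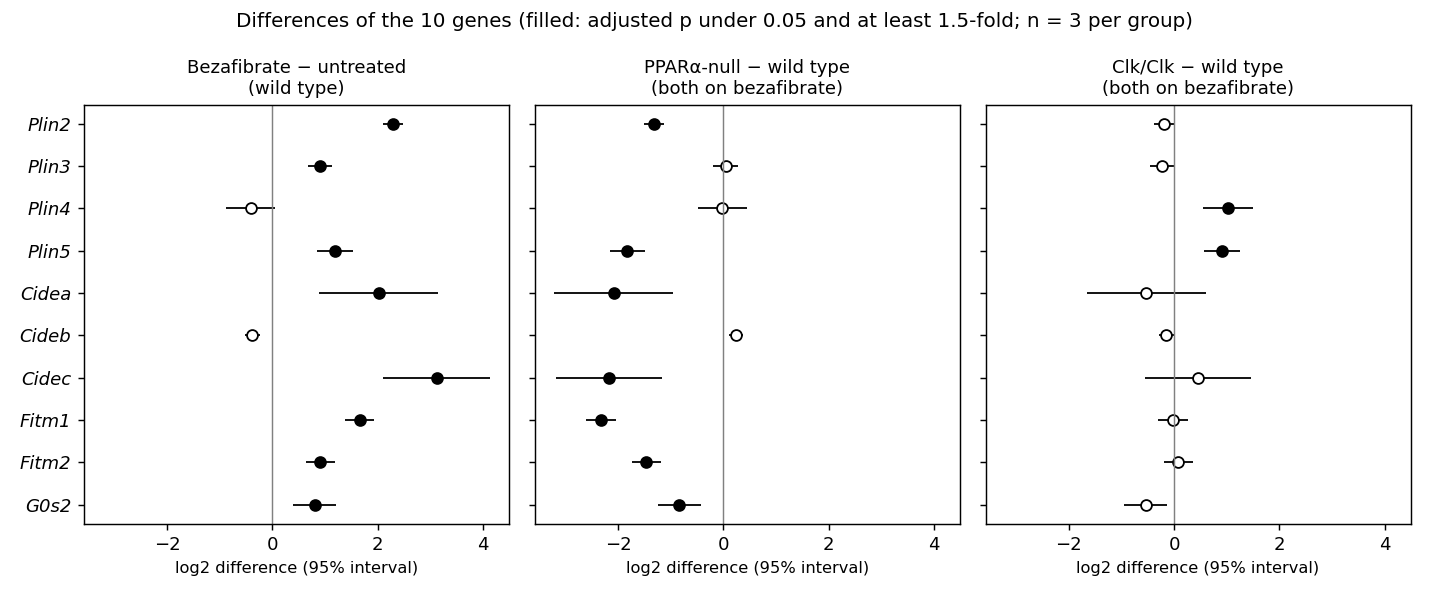
Log2 differences (x axis) of the 10 genes (y axis) in the 3 main comparisons, with 95% intervals from limma; filled points were called, open points were not, and n = 3 mice per group. With the drug 8 genes are to the right of 0 and called, in null mice 7 are to the left and called, and in Clk/Clk mice only Plin4 and Plin5 are called.

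The remaining contrasts place the mutants against untreated wild type and against each other. Treated Clk/Clk mice were higher than untreated wild type in 8 of the 10 genes and lower in none past the threshold, where 19.5% of all genes were called, 10.6% higher and 8.82% lower. Without Cidea and Cidec, which were below the filter level in all untreated mice, 6 of 8 were higher. With 1 array left out, the count of the 10 genes ran from 6 to 8. Treated null mice were higher in 2, Plin2 and Plin3, and lower in 2, Plin5 and Fitm1, where 6.65% of all genes were called, 3.96% higher and 2.69% lower. Clk/Clk mice were higher than null mice in 7 of the 10 genes and lower in none, where 15.2% of all genes were called, 7.43% higher and 7.78% lower. Without Cidea and Cidec, 5 of 8 were higher there. The 3 not called in that contrast were Plin3 (-0.27, adjusted p = 0.0681), Cideb (-0.39, under the fold threshold) and G0s2 (0.30, adjusted p = 0.242). The Cidea call among the 7 (1.56, adjusted p = 0.0337) was lost in 5 of the 12 fits without 1 array, those without Clk/Clk mouse 1 or 2 or any null mouse, with a range of 1.15 to 2.22, and with robust and trended variances (adjusted p = 0.0577).

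Other genes of droplet metabolism were read from lists, whose counts stand beside the shares of all genes given above, 12.8% higher and 7.77% lower with the drug. Of 10 intracellular lipases and cofactors, 6 rose with the drug in wild type and none fell, with a median of 1.21. Pnpla3, a droplet-bound acylhydrolase, rose by 3.19 (SE 0.42), the triglyceride lipase Pnpla2, the target of G0s2, by 1.75 (SE 0.094), and the monoacylglycerol lipase Abhd6 by 1.71 (SE 0.12). In null mice 5 of the 10 were lower than in treated wild type and none was higher, such as Ces1g (-1.49), Abhd6 (-1.40) and Pnpla2 (-1.39). With suffix probe sets, which can match several transcripts, left out, 3 were lower, and the monoglyceride lipase Mgll went from -1.01 to 0.085. Mgll is also among the 6 that rose with the drug, and that rise went from 1.48 to 0.10, not called, without suffix probe sets. Ces1g missed the threshold (-1.26) once mouse 2 of the treated wild type was left out. In Clk/Clk mice 1 was lower, Pnpla3 (-3.24, SE 0.42, adjusted p = 4.01e-04), and none was higher. Pnpla2 differed there by 0.23 (adjusted p = 0.0994).

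Of 13 triglyceride synthesis genes 6 rose and 1 fell with the drug, with a median of 0.44. Among the 6, Agpat2 (0.69) and Lpin2 (0.69) were not called without mouse 1 of the treated wild type (0.49 and 0.58). The rise of Agpat3 (1.13) was 0.066 with suffix probe sets left out. The acyltransferases Mogat1 (5.82, from an untreated mean of 4.74, about the filter level) and Gpat3 (3.45) rose, and Lpin1, a phosphatidate phosphatase, fell (-2.24, SE 0.33). In null mice 4 were lower, led by Mogat1 (-3.90) and Gpat3 (-2.79), and 2 were higher, among them Lpin1 (1.49). The other, the acyltransferase Dgat2 (0.61), fell under the fold threshold when mouse 1 of the null group (0.57) or mouse 2 of the treated wild type (0.58) was left out. None of the 13 was called in Clk/Clk mice by limma, 1 had an unadjusted p under 0.05, and their median there was -0.0097.

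Of 20 other droplet proteins 6 rose with the drug and none fell, with a median of 0.069. The Pnpla2 inhibitor Hilpda rose by 3.25 (SE 0.27) and the acyl-CoA synthetase Acsl3 by 1.86 (SE 0.17). The rise of Mettl7b (0.67) fell under the fold threshold without untreated mouse 2 (0.58). In null mice 4 were lower and none was higher, among them Hilpda (-2.37), Acsl3 (-1.78) and Hsd17b11 (-1.71, or -2.75 as the mean of its probe sets). The other, Bscl2 (-0.63), fell under the fold threshold as the mean of its probe sets (-0.58) or without treated wild-type mouse 1 (-0.57). With suffix probe sets left out, 2 were lower. The hepatocyte droplet enzyme Hsd17b13 is among the 6, but its 2 probe sets moved in opposite directions with the drug (4.29 on the brighter, -1.55 on the dimmer) and in Clk/Clk mice (0.70 and -2.64). In null mice the brighter gave 0.13 and the dimmer -3.12, so no direction is given for this gene. In Clk/Clk mice it was the 1 gene of the list called higher, and none was called lower by limma, whereas with the mean of each gene's probe sets none was higher and 2 were lower. Without Clk/Clk mouse 3, 1 was lower.

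Of 10 genes of very low density lipoprotein assembly, the process in which Cideb acts, 2 rose and 1 fell with the drug, with a median of 0.039. The transfer protein Mttp rose by 0.83 (SE 0.076), and Apoa4 fell (-2.47, SE 0.47). In null mice Apoa4, an apolipoprotein of triglyceride-rich particles, was higher (3.85, SE 0.47), and Tm6sf2, which acts in lipoprotein lipidation, was lower (-0.70, SE 0.21). The Tm6sf2 call in null mice ended without mouse 1 (-0.56) or 3 (-0.64) of the null group or mouse 2 (-0.61) or 3 (-0.58) of the treated wild type. It also ended when only these 2 groups were fitted (-0.70, adjusted p = 0.0617). The rise of Tm6sf2 with the drug (0.75) ended without untreated mouse 3 (0.62). In Clk/Clk mice 1 was lower, Tm6sf2 (-1.59, SE 0.21, adjusted p = 5.35e-04), and 2 were lower without Clk/Clk mouse 3. Among 11 transcription factors and coactivators 1 rose with the drug, the lipid storage receptor Pparg (0.99, SE 0.24, adjusted p = 0.00485), and 4 fell, led by Ppargc1a (-2.53). The only probe set of Pparg is a suffix set. Pparg was also above untreated wild type in null mice (1.46, SE 0.24, adjusted p = 0.00171) and in Clk/Clk mice (1.15, SE 0.24, adjusted p = 0.00204), and null and treated wild-type mice differed by 0.47 (adjusted p = 0.151). In Clk/Clk mice none of these factors was called by limma, though 5 had an unadjusted p under 0.05, and 1 was lower when Clk/Clk mouse 1 or treated wild-type mouse 2 was left out.

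**Figure D4:**
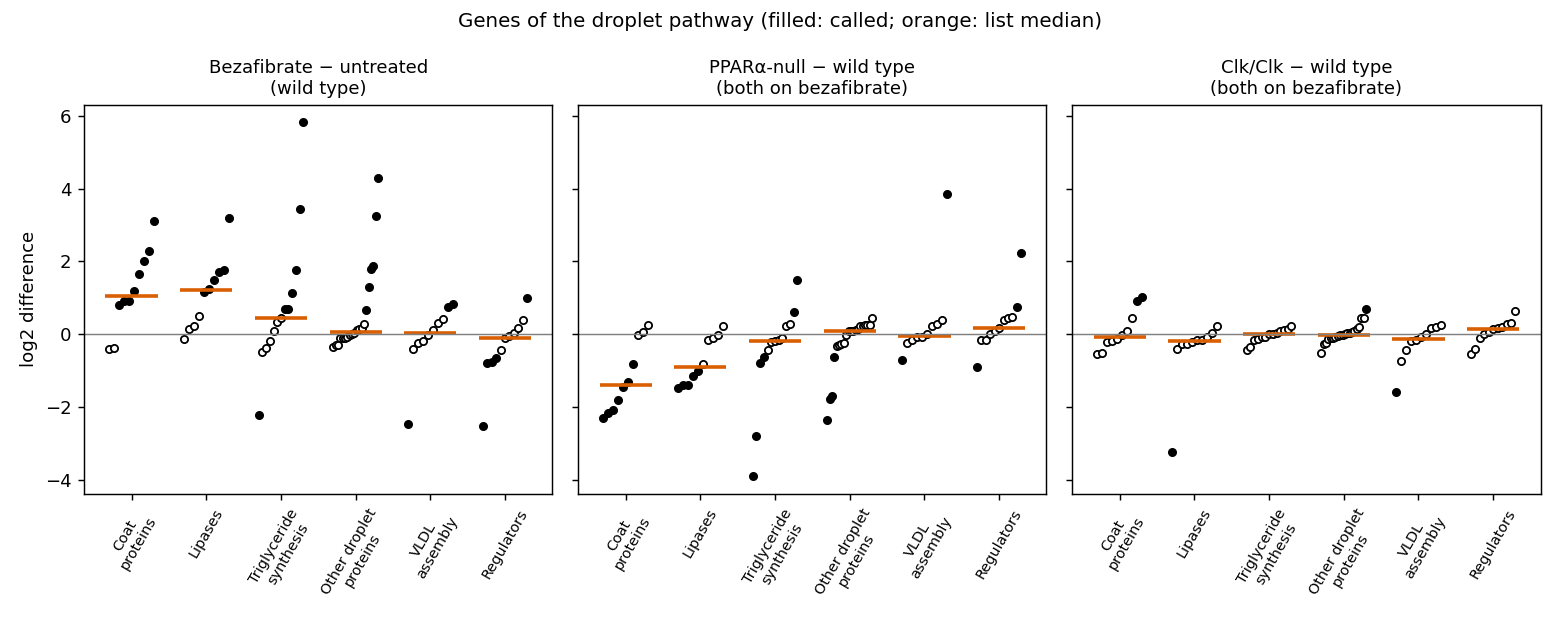
Log2 differences (y axis) of the genes of each list (x axis) in the 3 main comparisons; each point is a gene, filled when called, and the orange line is the list's median. The coat proteins and the lipases have medians of 1.05 and 1.21 with the drug and -1.39 and -0.91 in null mice, while in Clk/Clk mice the single called lipase is Pnpla3 at -3.24.

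Markers of cells that are rich in some of these proteins were read in the same mice. Over all genes, 12.8% were called higher and 7.77% lower with the drug. The shares were 5.35% and 8.09% in null mice, and 2.64% and 6.49% in Clk/Clk mice. Of 7 adipocyte markers 4 were below the filter level on all 12 arrays, Adipoq, Lep, Acvr1c and Ucp1, and none of the 3 tested was called in the 3 main comparisons by limma, with 1 at an unadjusted p under 0.05 in each. Their summed level, on the log2 scale, was 7.93 to 8.15 in untreated wild type, 7.92 to 7.97 in treated wild type, 8.02 to 8.19 in null mice and 7.94 to 8.05 in Clk/Clk mice. Of 9 striated muscle markers 4 were below the filter level on all arrays, and none of the 5 tested was called in the 3 comparisons by limma, with 2, 2 and 1 at an unadjusted p under 0.05. The summed hepatocyte markers read 17.10 to 17.16 in untreated wild type, 16.76 to 16.81 in treated wild type, 16.94 to 17.02 in null mice and 16.89 to 16.91 in Clk/Clk mice. Of these 9 markers 4 were called lower with the drug, 2 were higher in null than in treated wild-type mice, and 1 was higher in Clk/Clk mice, or 2 without Clk/Clk mouse 1. Macrophage markers moved in the Clk/Clk comparison, in which 4 of 9 were called lower, Clec4f, Cd5l, Cd68 and Folr2, and their summed level was 11.81 to 12.12 against 12.39 to 12.87 in treated wild type. Only 2 were lower when Clk/Clk mouse 2 or treated wild-type mouse 1 was left out. The summed stellate cell markers read 12.80 to 12.97 in untreated and 12.44 to 12.58 in treated wild type. They read 12.34 to 12.55 in null mice and 12.37 to 12.39 in Clk/Clk mice. Of the 9, 2 were called lower with the drug, 1 in null mice and 2 in Clk/Clk mice. The null count was 0 without null mouse 1 or 2. The brightest, Dcn, weighs most in the sum and read 11.92 to 11.98 in untreated and 11.43 to 11.49 in treated wild type. The list's median difference was 0.093 with the drug, -0.23 in null mice and -0.011 in Clk/Clk mice. The part of these markers in the Plin4 and Plin5 differences was not tested. With the drug in wild type 1 macrophage marker was higher (Cd68, 0.90), or 2 without mouse 2 or 3 of the treated or mouse 1 of the untreated wild type. There 3 of 7 endothelial markers were lower, or 1 without mouse 1 of the treated wild type or with the mean of probe sets. In null mice 2 macrophage markers were lower, Cd68 (-0.68) and Marco (-0.76). That count was 0 without mouse 1 of the null group or of the treated wild type, and 1 without mouse 2 or 3 of the null group or mouse 2 of the treated wild type, with the mean of probe sets and with the replicate block. Their part in the droplet gene differences was not tested.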

How the data were processed

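Expression was measured on Affymetrix arrays from 250 ng of total liver RNA per mouse, 3 mice in each of 4 groups. The authors deposited log2 expression values per probe set, and the submitters' processing notes name RMA without version or settings. Gene symbols came from the platform table and RefSeq gene identifiers (GRCm38.p6). Of 45101 probe sets, a probe set with exactly 1 symbol was kept if, on 3 or more arrays, it was no dimmer than that array's 40th percentile, and a gene was represented by its brightest probe set, which gave 13598 genes. All arrays entered a single linear model of 4 group means (limma 3.58.1, R 4.3.3). Probe sets were also fitted singly. The code was tested on simulated data. The labels give no batch and no separate source for replicates beyond their numbers, and p-values measure the spread between these mice. The number of arrays limits precision.

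Replicate numbers shared between groups were not treated as pairs in the main fit. Of 18 same-numbered pairs, deviations from group means correlated above 0.1 in 3 (range -0.092 to 0.13). Different-numbered pairs ran from -0.16 to 0.13. With 3 mice per group these values cannot exclude pairing. Alternatives were other filters, probe set rules, normalization, variance models, fits of 2 groups, a replicate block, no minimum fold and leaving out each array. The genes and lists were chosen with earlier results of these data known. The genes named are the 10 droplet genes, up to 3 called genes per list with the largest difference, markers, and table neighbours. Others named were chosen after their values were seen, as was the hexamer search. A group below the filter level on all its arrays was set to that level, and the fold given as a bound between means, without the spread between mice. Plin1 is not analysed here.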

Additional observations from a re-analysis of the deposited data

How the results depend on the processing

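The number of the 10 droplet genes called stayed within 1.5 times its main value in all 9 kinds of alternative and all 12 fits without 1 array. With an array left out it was 8 throughout for the drug in wild type, 7 throughout for null mice and 2 to 3 for Clk/Clk mice. Among the droplet genes the replicate block changed only the Plin4 call of Clk/Clk against untreated wild type (0.61, adjusted p = 0.0554). Of 1254 values of single droplet genes, 1213 kept direction and side of the threshold, 20 lost the call, 9 gained it and 12 reversed. All 12 reversals were of differences that were not called: Clk/Clk against treated wild type, with an array left out, ran from -0.95 to 0.14 for Cidea and from -0.14 to 0.12 for Fitm1. Null against treated wild type ran from -0.074 to 0.14 for Plin3 and from -0.20 to 0.11 for Plin4. Null against untreated wild type ran from -0.19 to 0.16 for G0s2 and from -0.16 to 0.033 for Cidea. Among other genes, Hsd17b13 in Clk/Clk mice reversed with the mean of its probe sets (-0.97), and Mgll in null mice moved from -1.01 to 0.085 without suffix probe sets. Without them Mgll also moved from 1.48 to 0.10 with the drug in wild type. Agpat3 moved from 1.13 to 0.066 with the drug and from -0.63 to -0.0905 in null mice. With suffix probe sets left out, 3 lipases and 2 other droplet proteins were lower in null mice. No regulator (0) was then called higher with the drug, because Pparg, whose only probe set is a suffix set, could not be tested. Cideb, also read by a suffix set alone, could not be tested in that setting either. The causes were not tested. Signals under the filter level leave Cidea and Cidec with bounds, and each group has 3 mice.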

Other observations

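The genes most like each droplet gene over the 12 mice, by Pearson's r over all tested genes outside the set, are given as a description, since all share the treatment and genotypes. For Plin2 they were Decr1, a reductase of mitochondrial fatty acid oxidation (r = 0.993), Hsdl2 (0.993) and the fatty aldehyde dehydrogenase Aldh3a2 (0.991). For Fitm2 they were Mdfic (0.996), Bhlhb9 (0.990) and the mitochondrial acyl-CoA dehydrogenase Acadvl (0.990), and for Fitm1 Hacd3 (0.988), Ptp4a3 (0.988) and Etfb (0.986). For Plin5 they were Hddc3 (0.977), Zfp617 (0.976) and Ate1 (0.974). The genes nearest to Cideb were Nostrin (0.980), the omega-hydroxylase Cyp4f14 (0.977) and the complement gene C8b (0.976). Plin4, Cidea and G0s2 had no gene above 0.92, and their nearest were D730045A05Rik (0.913), Shroom4 (0.919) and Shq1 (0.919).

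Of 14 tested table neighbours outside the set, 6 were called with the drug in wild type, 5 in null mice and 3 in Clk/Clk mice, Lrg1 included, where 20.6%, 13.4% and 9.13% of all genes were. Dennd4c, Ticam1, Nop9 and Dcaf11, next to Plin2, Plin3, Cideb and Fitm1, were tested and not called. Dcaf11 passed the p threshold at under 1.5-fold with the drug (-0.41, adjusted p = 0.00372). In Clk/Clk mice Ticam1 (0.26, adjusted p = 0.0369) and Dennd4c (0.26, adjusted p = 0.0396) did so. G0s2 lies between Hsd11b1, a glucocorticoid-activating reductase that was lower with the drug in wild type (-2.42, SE 0.21) and higher in null mice (2.20, SE 0.21), and Lamb3, a laminin chain that was higher (2.74, SE 0.18) and lower (-2.48, SE 0.18). Haus6, next to Plin2, rose by 1.92 with the drug (SE 0.26) and was lower in both null (-1.10) and Clk/Clk mice (-1.89). Tubb6, next to Cidea, rose by 2.05 (SE 0.12) and was lower in null (-1.61) and Clk/Clk mice (-1.11). Psme1, next to Fitm1, rose by 0.92 (SE 0.090) and was lower in null mice (-0.69). Of the neighbours of Cidec and Fitm2, Rpusd3, Jagn1 and Gdap1l1 were tested and not called in the 3 main comparisons, though Rpusd3 passed the p threshold at under 1.5-fold with the drug (-0.36, adjusted p = 4.63e-04) and in null mice (0.35, adjusted p = 0.00111), as did Jagn1 in Clk/Clk mice (0.33, adjusted p = 0.0196).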
